A study of Homo sapiens with 16 samples.

Results

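RAB GTPase and TBC domain genes were described across the time course of SMARCA5 degradation in Kasumi-1, a human cell line from acute myeloid leukaemia with the RUNX1-RUNX1T1 fusion gene. The genes were taken by symbol: RAB followed by a number and optional letters, or TBC1D followed by a number, without TBC1D2. The rule gave 67 of the 10304 listed transcripts. By role, 39 were RAB GTPases proper, 6 were regulators or effectors that carry RAB in their name without being GTPases, and 22 were TBC domain genes. All 67 passed edgeR's filter on low counts in both regions that were counted. The mean normalized gene-body count was at least 100 in 65 of them, and the promoter-proximal count in 38.

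RAB proteins are small GTPases of the RAS superfamily that mark the membranes of the secretory and endocytic routes. Exchange factors load them with GTP, effectors such as tethers and motor adaptors read the GTP-bound form, and TBC domain proteins speed up GTP hydrolysis and so turn them off. Myeloid cells rely on RABs for the sorting of lysosomal enzymes, for the release of granules and for the recycling of surface receptors.

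The measurements were PRO-seq read counts, which report RNA polymerases engaged on a gene through run-on labelling of nascent RNA, not the amount of mature RNA or protein. The groups were SMARCA5-FKBP12F36V Kasumi-1 cells left untreated (0 h, 5 libraries) or kept with 500 nM dTAG-47 for 2 h (3 libraries), 6 h (4 libraries) and 24 h (2 libraries). SMARCA5 is the ATPase of the ISWI nucleosome remodellers. Both of its alleles carried the FKBP12F36V tag in every group, untreated cells included, and dTAG-47 directs the tagged protein to degradation. The 2 samples of the parental line were not analysed here, and no group used here was of untagged cells given dTAG-47, so an effect of the compound itself and an effect of the loss of SMARCA5 cannot be told apart. The design text calls the replicates biological, but the labels do not say whether the tagged line is 1 clone or whether replicates are separate cultures, so p-values measure the spread between these libraries, part of which may be technical.

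Libraries held 11182894 to 34209362 gene-body reads and 1667950 to 7171601 promoter-proximal reads, which set the counting error of each value. The names of the count columns carry a code that sorted the libraries into 3 groups, taken here as runs. What the code means is not given in the sources used here. Run 1 held 2 untreated libraries and 1 of 2 h, run 2 held 2 libraries at each of the 4 times, and run 3 held 1 untreated library and 2 of 6 h, so the 24 h time was measured in run 2 alone. The model used a term for the run, and values are given within runs where runs differ. Levels are CPM (read counts scaled to a common library size, with TMM factors), and changes are log2 fold changes from edgeR's quasi-likelihood test. That test gives no standard error (SE). The SE printed with its changes is the size of the change divided by the square root of the test's F value. A gene is said to have risen or fallen where the adjusted p was under 0.05 over all transcripts tested. Of the 7 genes used to mark the line, 6 were in the tables, with KIT at 2494 to 4391 CPM and RUNX1 at 2796 to 3846 CPM over all libraries; RUNX1T1 was not listed. Of 6 genes of other lineages, EPCAM alone was listed, at 17.0 to 33.6 CPM. SMARCA5 itself gave log2 changes in its gene body of -0.27 ± 0.12 at 2 h (SE, adjusted p = 0.0779), -0.11 ± 0.12 at 6 h (0.519) and -0.18 ± 0.14 at 24 h (0.408). Since the tag acts on the protein, these values are no measure of the degradation.

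The promoters of 4 of the 7 genes that rose or fell at every time are shown first. Those of RAB34 and TBC1D10B, which also rose at every time, are not printed, and none was found for TBC1D4. They run from 250 bases before to 50 bases after the RefSeq start of the gene in GRCh38.p14. The start of the counted transcript in GENCODE v29 lay 21 bases from that start for RAB4A, 6 for TBC1D7, 36 for RAB5B and 3 for RAB9A. RAB4A (chr1:229270861-229271160, plus strand) fell at every time, and TBC1D7 (chr6:13328488-13328787, minus strand), RAB5B (chr12:55973699-55973998, plus strand) and RAB9A (chrX:13688878-13689177, plus strand) rose at every time. Capitals mark matches to the ETS core CCGGAA, the E-box CACGTG and the CCAAT box, searched on both strands, so that the ETS core can also read TTCCGG and the CCAAT box ATTGG. No printed window matched the CRE TGACGTCA or the RUNX motif TGTGGT. The SP box GGGCGG was searched too but is left in lower case.
RAB4A: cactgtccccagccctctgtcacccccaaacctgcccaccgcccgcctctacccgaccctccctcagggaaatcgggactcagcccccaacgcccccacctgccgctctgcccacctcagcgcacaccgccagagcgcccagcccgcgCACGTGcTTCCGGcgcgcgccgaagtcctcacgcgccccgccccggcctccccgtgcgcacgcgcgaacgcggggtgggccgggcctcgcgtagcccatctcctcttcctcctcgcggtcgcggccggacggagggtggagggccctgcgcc
TBC1D7: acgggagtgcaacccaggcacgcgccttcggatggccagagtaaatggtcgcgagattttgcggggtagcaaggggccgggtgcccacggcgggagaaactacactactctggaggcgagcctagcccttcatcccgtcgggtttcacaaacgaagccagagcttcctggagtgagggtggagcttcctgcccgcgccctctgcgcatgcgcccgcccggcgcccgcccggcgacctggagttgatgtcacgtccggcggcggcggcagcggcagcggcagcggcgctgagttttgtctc
RAB5B: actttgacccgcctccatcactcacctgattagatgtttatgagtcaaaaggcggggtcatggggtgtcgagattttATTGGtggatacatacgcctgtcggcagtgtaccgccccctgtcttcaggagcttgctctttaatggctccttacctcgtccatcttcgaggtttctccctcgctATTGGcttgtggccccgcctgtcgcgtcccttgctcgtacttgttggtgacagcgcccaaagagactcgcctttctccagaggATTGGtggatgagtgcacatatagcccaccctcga
RAB9A: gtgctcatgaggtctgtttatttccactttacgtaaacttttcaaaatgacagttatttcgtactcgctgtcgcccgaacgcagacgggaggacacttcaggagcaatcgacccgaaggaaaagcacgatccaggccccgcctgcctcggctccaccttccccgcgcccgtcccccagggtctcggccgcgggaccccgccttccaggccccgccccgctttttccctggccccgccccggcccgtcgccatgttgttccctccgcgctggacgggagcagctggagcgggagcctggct
RAB4A held the ETS core beside an E-box. RAB5B held the CCAAT box on the reverse strand in 3 places, and TBC1D7 and RAB9A held none of the capitalised motifs. Of the risers not printed, RAB34 held the ETS core and TBC1D10B the CCAAT box.

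In untreated cells the 67 genes were transcribed at about the level of the other transcripts. Their median gene-body level per kilobase of listed span was 1.99 CPM per kb, against 1.94 CPM per kb over all transcripts. The highest was TBC1D2B, a TBC domain protein of endosomes, at 6.40 ± 1.09 CPM per kb (SD, n = 5). It was followed by TBC1D10C, an inhibitor of calcineurin in lymphocytes, at 5.06 ± 1.01 CPM per kb. RAB4A, which returns receptors quickly from early endosomes, stood at 4.70 ± 0.33 CPM per kb. RAB8A, which acts in transport to the plasma membrane, stood at 4.67 ± 0.62 and RAB14, which acts between endosomes and the Golgi, at 4.34 ± 0.40 CPM per kb. From TBC1D10C to RAB14 each differed from the next by less than the larger of their SDs. RAB7A, which takes cargo from late endosomes to lysosomes, had 3.76 ± 0.21 CPM per kb. The lowest levels were those of RAB23, known as a repressor of Hedgehog signalling in mouse, at 0.278 ± 0.112 CPM per kb, TBC1D30 at 0.395 ± 0.106 and RAB27B at 0.507 ± 0.140. The listed spans ran from 2.38 kb (RAB42) to 586 kb (TBC1D5), with a median of 38.1 kb against 24.8 kb over all transcripts. The strand that was counted is not given in the sources used here, so reads of overlapping genes cannot be told apart; this touches RAB11B, RAB1A and TBC1D8, whose listed spans overlap another listed gene.

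At 2 h of dTAG-47, 11 of the 67 genes rose in the gene body and 13 fell. TBC1D7, TBC1D10B, RAB23, TBC1D17 and RAB33A were among those that rose, and TBC1D30, RAB27A, TBC1D15, RAB22A and RAB4A among those that fell. Over all transcripts 38.6% were called at this time, 19.7% higher and 18.9% lower, so the members' share lay near the background. At 6 h 15 rose and 6 fell, with 26.8% of all transcripts called, 13.5% higher and 13.4% lower. At 24 h 10 rose and 3 fell, with 19.8% called, 10.8% higher and 9.08% lower. The median log2 change of the 67 genes was -0.05, 0.03 and 0.06 at 2, 6 and 24 h, against 0.01 over all transcripts at each time. The changes were small: the median size among called members was 0.44, 0.40 and 0.49 on the log2 scale, and 6, 2 and 3 of them passed 1.5-fold.

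**Figure D1:**
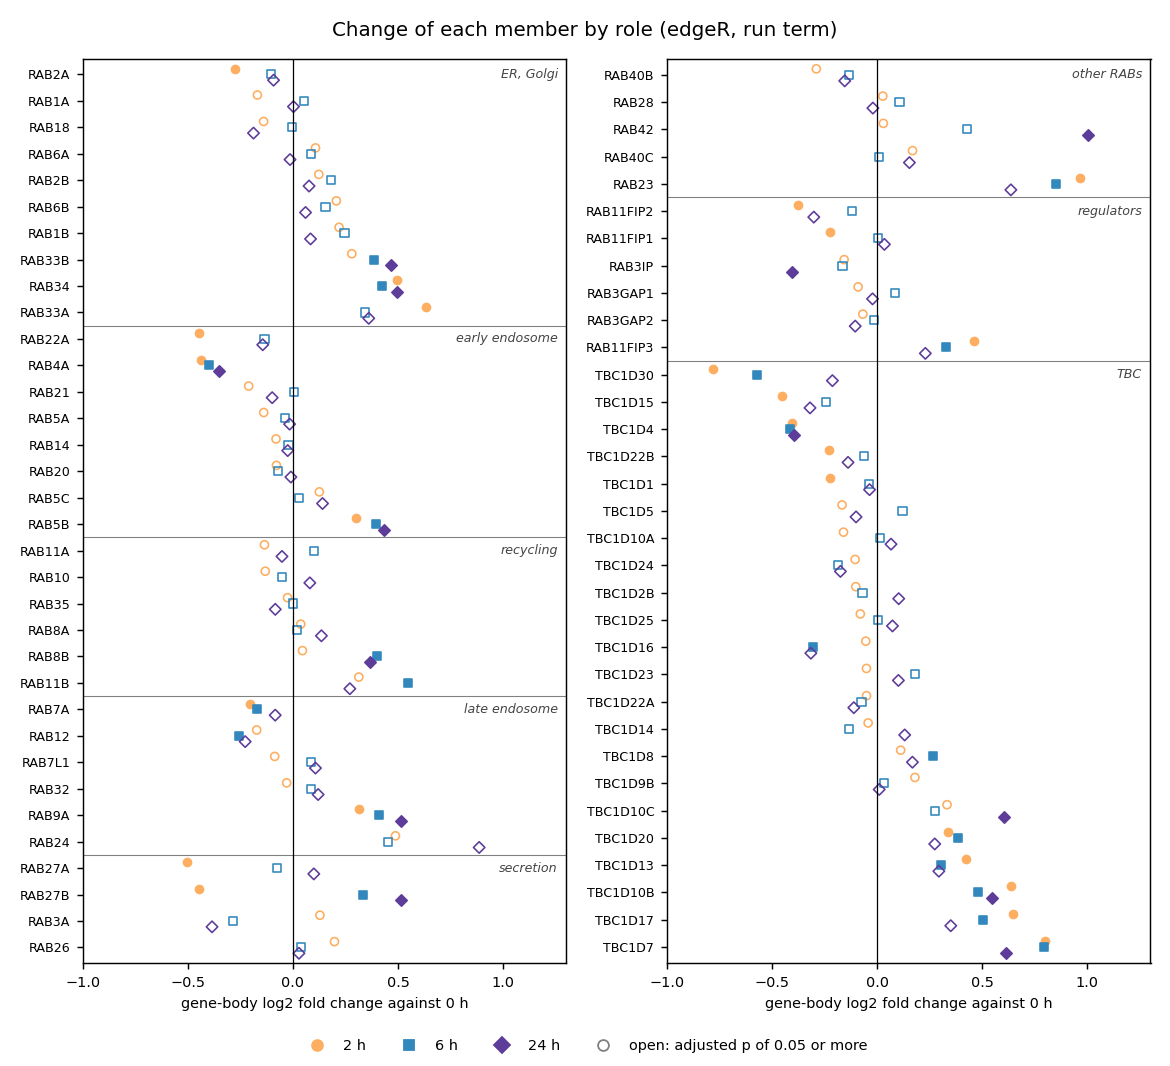
Gene-body log2 fold change of each of the 67 genes at 2, 6 and 24 h of dTAG-47 against 0 h, grouped by role; circles are 2 h, squares 6 h and diamonds 24 h, and filled symbols passed the test. Called members at 2 h run between -0.78 (TBC1D30) and 0.96 (RAB23), and RAB42 stands at 1.0 at 24 h.

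Across the 3 times 33 of the 67 genes were called at least once and 34 at none. RAB34, RAB5B, RAB9A, TBC1D10B and TBC1D7 rose at all 3 times, and RAB4A and TBC1D4 fell at all 3. RAB27B was the 1 gene called in opposite directions, lower at 2 h and higher at 6 and 24 h. The untreated libraries are shared by the 3 comparisons, so calls at several times are not independent of each other. The same counts over all transcripts are not given here, so these counts are no result about the members. The 34 genes called at no time include RAB1A and RAB1B, which act between the endoplasmic reticulum and the Golgi, RAB5A and RAB5C, RAB11A, and RAB3GAP1 and RAB3GAP2, the subunits of a RAB regulator complex.

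The called genes had the same sign in both runs that could be compared, in 24 of 24 at 2 h and 21 of 21 at 6 h. Over all transcripts 99.1% of those that rose and 99.7% of those that fell at 2 h did too. The calls were made from the same runs, which largely fixes this, so it is no separate evidence. The sizes differed between runs. At 2 h TBC1D7 was higher by 1.09 on the log2 scale in run 1 and by 0.61 in run 2, and RAB27A differed by -0.77 in run 1 and by -0.38 in run 2. Without the 2 h library of run 1, 3 rose and 8 fell at 2 h. With no term for the run 4 rose and 5 fell at 2 h. At 6 h the 21 calls became 11 without the untreated library of run 3, and 10 and 9 without the 6 h libraries A and B of run 2. At 24 h the 13 calls became 4 without either 24 h library. No call reversed its sign under these alternatives. The shares of all transcripts called under each of them are not given here, so these counts are no result about the members. The calls that were lost under no alternative were those of RAB27A, RAB4A, RAB5B, TBC1D10B, TBC1D30, TBC1D4 and TBC1D7 at 2 h, of RAB4A, RAB5B, RAB8B, RAB9A, TBC1D10B, TBC1D20, TBC1D4 and TBC1D7 at 6 h, and of RAB5B and RAB9A at 24 h.

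**Figure D2:**
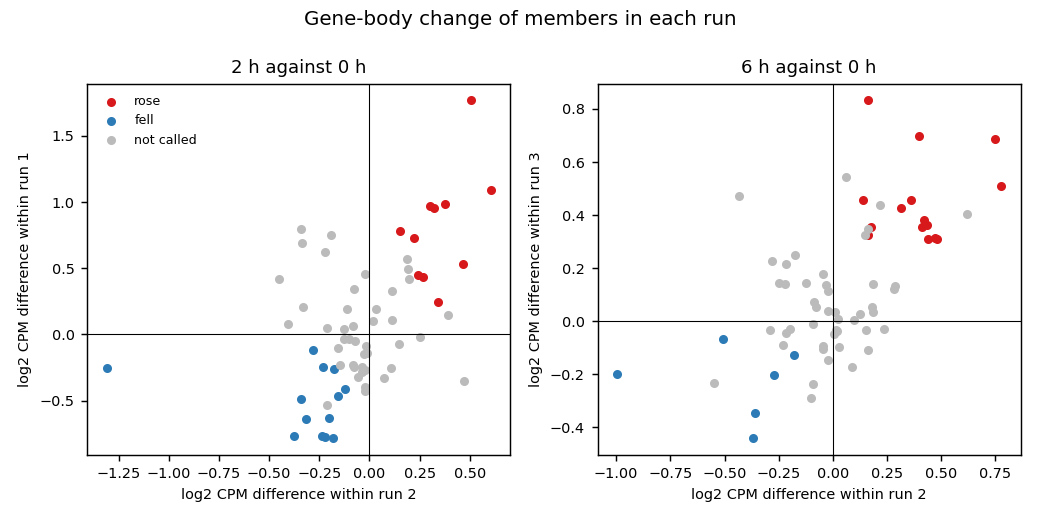
Difference in gene-body log2 CPM of each of the 67 genes within single runs, with run 2 on the horizontal axis and run 1 (2 h, left) or run 3 (6 h, right) on the vertical axis. Called genes, coloured by direction, were called from the same runs and lie in the quadrants where both have the same sign.

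Among the 10 RABs of the endoplasmic reticulum and Golgi, 2 rose and 1 fell at 2 h, 2 rose at 6 h and 2 rose at 24 h. Counts by role, here and below, are to be read against the shares over all transcripts. At 2, 6 and 24 h these were 19.7, 13.5 and 10.8% for rises and 18.9, 13.4 and 9.08% for falls. RAB34, which is needed for ciliary membrane formation, had 10.8 ± 1.38 CPM at 24 h and 8.71 ± 2.09 CPM at 0 h (SD, n = 2 and 5). Its log2 changes were 0.49 ± 0.13 at 2 h, 0.42 ± 0.13 at 6 h and 0.49 ± 0.16 at 24 h (SE, adjusted p = 0.00988, 0.0302 and 0.0471 in edgeR). The groups overlapped for RAB34, since the untreated library of run 3 (12.4 CPM) exceeded those of 24 h (9.81 and 11.8 CPM). Within run 2 all 6 treated libraries, at 9.81 to 11.8 CPM, exceeded both untreated ones, at 7.77 and 7.55 CPM. The 24 h call of RAB34 remained when either of 2 libraries was left out (A or B of 6 h in run 3) and was lost without any 1 of the other 12, with an adjusted p of up to 0.316. Its 2 h call was lost without the 2 h library of run 1 (0.0713), and its 6 h call in 6 of the 14 fits (up to 0.103). RAB33B, which binds the autophagy protein ATG16L1, rose at 6 h (0.39 ± 0.12, adjusted p = 0.0348) and 24 h (0.47 ± 0.15, 0.0434), and these calls were kept in 9 (6 h) and 4 (24 h) of the 14 fits that left out 1 library. RAB33A rose at 2 h (0.63 ± 0.14), and RAB2A, which acts in transport between the endoplasmic reticulum and the Golgi, fell at 2 h (-0.28 ± 0.08, adjusted p = 0.0140). Without the 2 h library of run 1 both calls were lost (adjusted p = 0.0716 for RAB33A and 0.167 for RAB2A).

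Among the 8 RABs of early endosomes and phagosomes, RAB5B rose and RAB4A fell at each time, and RAB22A fell at 2 h. RAB4A (NM_004578, hg19, chromosome 1, 229406879 to 229440518) had 162, 171, 142, 154 and 162 CPM at 0 h, 122, 132 and 106 CPM at 2 h, 125, 121, 112 and 111 CPM at 6 h, and 132 and 125 CPM at 24 h. Every treated library of RAB4A lay below every untreated one. The log2 changes were -0.44 ± 0.07, -0.40 ± 0.07 and -0.35 ± 0.09 at 2, 6 and 24 h (SE, adjusted p = 0.000683, 0.00146 and 0.0133), and the 24 h call was lost without either 24 h library (up to 0.127). RAB5B, an early endosome fusion RAB (NM_001252036, hg19, chromosome 12, 56367697 to 56390467), had 92.6, 91.5, 79.7, 82.2 and 79.9 CPM at 0 h, 105, 101 and 109 CPM at 2 h, 108, 109, 97.3 and 111 CPM at 6 h, and 109 and 114 CPM at 24 h. All treated libraries of RAB5B lay above the untreated ones. Its log2 changes were 0.30 ± 0.06, 0.39 ± 0.06 and 0.43 ± 0.07 (adjusted p = 0.00237, 0.000576 and 0.00171). The close relatives RAB5A and RAB5C were not called at any time, with log2 changes of -0.14 ± 0.07 and 0.13 ± 0.07 at 2 h. RAB22A, which sorts cargo in early endosomes, had 53.7, 48.9 and 47.6 CPM at 2 h, against 84.4, 78.0, 59.5, 60.2 and 60.6 CPM at 0 h. Its 2 h libraries lay below all untreated ones (-0.45 ± 0.10, adjusted p = 0.00403). That call was lost without the 2 h library of run 1 (adjusted p = 0.0503), and both untreated libraries of run 1 were the highest.

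Among the 6 RABs of recycling and the plasma membrane none was called at 2 h in edgeR, and DESeq2 called none either. At that time 0 of them had an unadjusted p under 0.05 in edgeR. At the adjusted threshold 38.6% of all transcripts were called, and their share at the unadjusted one is not given here. At 6 h RAB8B and RAB11B rose. RAB8B, a close relative of RAB8A (NM_016530, hg19, chromosome 15, 63481728 to 63559973), had 75.5, 67.2, 77.1, 84.9 and 83.3 CPM at 0 h, 90.9, 80.0 and 76.4 CPM at 2 h, 114, 109, 93.0 and 105 CPM at 6 h, and 112 and 104 CPM at 24 h. The 6 and 24 h libraries lay above all untreated ones, and the 2 h libraries overlapped them. The log2 change was 0.05 ± 0.07 at 2 h (adjusted p = 0.637), 0.40 ± 0.07 at 6 h (0.00148) and 0.37 ± 0.09 at 24 h (0.0102). RAB8A gave log2 changes of 0.04, 0.02 and 0.14 at 2, 6 and 24 h, none of which passed the test. The rise of RAB8B at 24 h was lost without the 24 h library A (adjusted p = 0.121). RAB11B, a recycling endosome RAB, rose at 6 h by 0.55 ± 0.17 (adjusted p = 0.0273), to 24.0 ± 4.37 CPM at 6 h (SD, n = 4), against 15.4 ± 2.82 CPM at 0 h (SD, n = 5). Its groups did not overlap, and the call was lost without any 1 of 4 libraries (the untreated one of run 3 and the 6 h libraries A and B of run 2 and A of run 3), with an adjusted p of up to 0.176.

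Among the 6 RABs of late endosomes and lysosomes, RAB9A rose at each time. RAB9A, which returns mannose 6-phosphate receptors from late endosomes to the Golgi (NM_004251, hg19, chromosome X, 13707240 to 13727944), had 39.2, 33.1, 45.3, 47.1 and 44.4 CPM at 0 h, 59.3, 51.0 and 48.7 CPM at 2 h, 63.0, 61.1, 55.9 and 56.3 CPM at 6 h, and 65.8 and 64.2 CPM at 24 h. The treated libraries of RAB9A lay above all untreated ones. Its log2 changes were 0.32 ± 0.08, 0.41 ± 0.08 and 0.51 ± 0.10 (adjusted p = 0.00971, 0.00323 and 0.00402), and the 2 h call was lost without the 2 h library of run 1 (0.0964). RAB7A fell at 2 h (-0.21 ± 0.05, adjusted p = 0.00837) and 6 h (-0.17 ± 0.05, 0.0285), with 306, 300 and 277 CPM at 2 h, against 353, 313, 313, 343 and 342 CPM at 0 h. The 2 h libraries of RAB7A lay below the untreated ones, and without the 2 h library of run 1 the adjusted p was 0.0558. RAB12, another RAB of late endosomes, fell at 6 h (-0.25 ± 0.07, adjusted p = 0.0187). Of the 14 fits that left out 1 library, the 6 h call was lost in 5 for RAB7A and in 2 for RAB12, without the untreated library of run 3 or the 6 h library B of run 2. RAB24, a RAB of autophagy with few reads, gave a log2 change of 0.89 ± 0.33 at 24 h and was not called (adjusted p = 0.0754).

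Among the RABs of regulated secretion, RAB27A was lower at 2 h alone, and RAB27B was lower at 2 h and higher later. RAB27A and RAB27B dock secretory granules and lysosome-related organelles at the plasma membrane. RAB27A (NM_183235, hg19, chromosome 15, 55495164 to 55582013) had 247, 231, 152, 203 and 198 CPM at 0 h, 151, 158 and 140 CPM at 2 h, 177, 201, 153 and 167 CPM at 6 h, and 207 and 235 CPM at 24 h. The first 2 of the untreated values are from run 1, the third from run 3 and the last 2 from run 2. The 2 h libraries lay below the untreated libraries of their own runs, though the pooled groups overlapped through run 3. The log2 change of RAB27A was -0.50 ± 0.09 at 2 h (SE, adjusted p = 0.00118), -0.07 ± 0.09 at 6 h (0.565) and 0.10 ± 0.11 at 24 h (0.542). The difference between times was itself tested in the same edgeR model, and 24 h stood above 2 h by 0.60 ± 0.11 (adjusted p = 0.00791).

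RAB27B (NM_004163, hg19, chromosome 18, 52495708 to 52562747) had 46.4, 40.5, 32.6, 26.1 and 24.3 CPM at 0 h, 21.5, 22.9 and 25.2 CPM at 2 h, 36.2, 34.3, 41.7 and 39.3 CPM at 6 h, and 37.0 and 42.3 CPM at 24 h. Its untreated level was 46.4 and 40.5 CPM in run 1 but 26.1 and 24.3 CPM in run 2, and the pooled groups overlapped. Within run 1 the 2 h library differed from the untreated ones by -0.78 on the log2 scale, and within run 2 by -0.18. Within run 2 the 6 and 24 h libraries stood above the untreated ones by 0.48 and 0.65, and within run 3 the 6 h libraries by 0.31. The model gave -0.45 ± 0.12 at 2 h (adjusted p = 0.01), 0.33 ± 0.11 at 6 h (0.0450) and 0.52 ± 0.14 at 24 h (0.0201). The fall at 2 h was not called without the 2 h library of run 1 (adjusted p = 0.167) nor in run 2 alone (0.164). The rise at 6 h was lost in 10 of the 14 fits that left out 1 library, and that at 24 h in 4, without either untreated library of run 2 or either 24 h library. Against 2 h, RAB27B was higher by 0.78 ± 0.13 at 6 h (adjusted p = 0.0162) and by 0.96 ± 0.14 at 24 h (0.00196), and the 6 h difference was lost without the 2 h library B, the 6 h library A or the 6 h library B of run 2 (up to 0.113). Of the 67 genes, 2 rose at 24 h against 2 h (RAB27A and RAB27B) and 2 at 6 h against 2 h (RAB27B and RAB8B), where 4.08% and 1.58% of all transcripts were called. None fell in either comparison in edgeR, where 13 (6 h) and 10 (24 h) of the genes had an unadjusted p under 0.05. The shares of all transcripts at the unadjusted threshold are not given here, so the 13 and 10 are no result about the members. Without the 24 h library B the calls of RAB27A and RAB27B at 24 h against 2 h were lost (adjusted p = 0.158 and 0.0560). The call of RAB8B at 6 h against 2 h (0.36 ± 0.08, adjusted p = 0.0494) was lost without any 1 of 10 libraries, with an adjusted p of up to 0.247. The remaining RABs of secretion, RAB3A and RAB26, were not called in the gene body; RAB3A, a synaptic and granule RAB, gave log2 changes of 0.13 ± 0.18, -0.29 ± 0.18 and -0.38 ± 0.23.

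**Figure D3:**
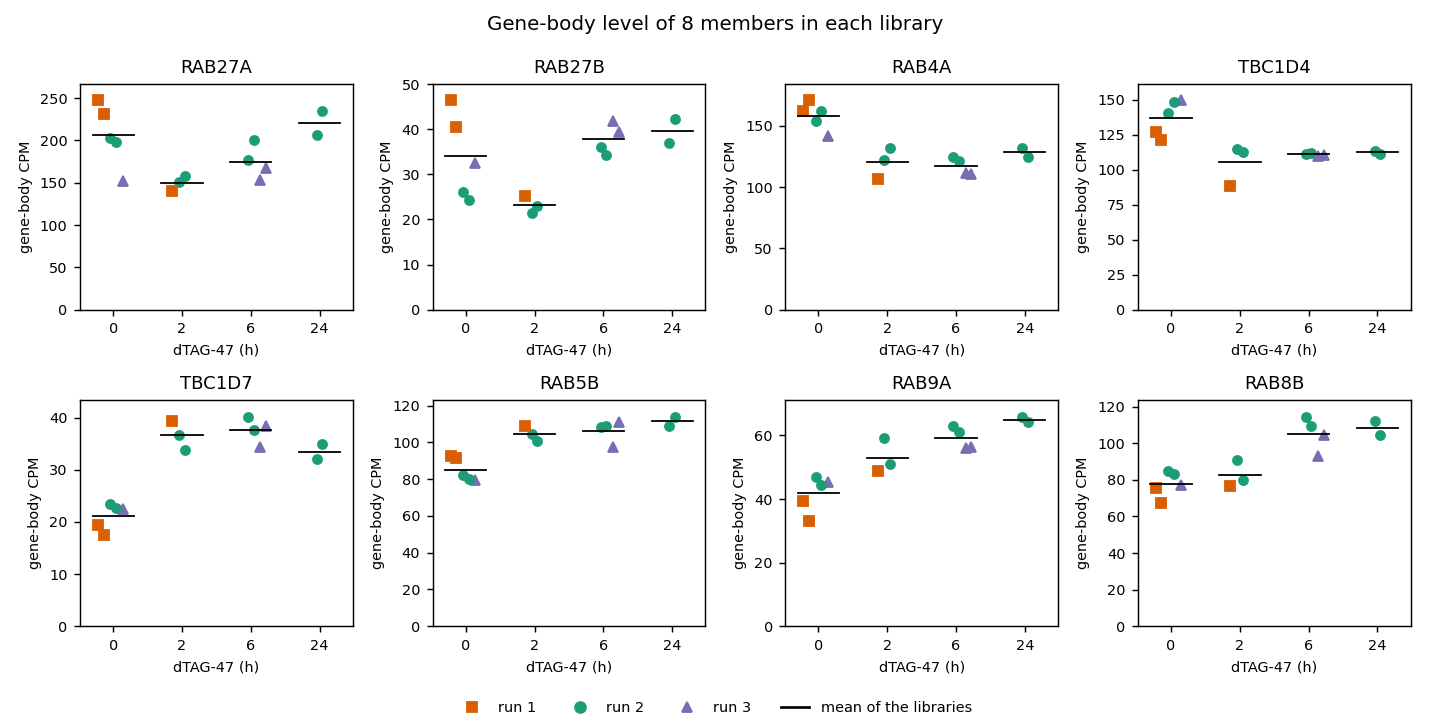
Gene-body level of 8 members in each of the 14 libraries, in TMM-scaled CPM, against hours of dTAG-47; symbols give the run and bars the group mean. RAB4A and TBC1D4 lie lower in every treated library, TBC1D7, RAB5B and RAB9A higher, and RAB27A and RAB27B have their lowest mean at 2 h.

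Among the 5 remaining RABs, RAB23 rose at 2 and 6 h and RAB42 at 24 h. RAB23 had 7.57, 3.58, 11.4, 11.2 and 12.9 CPM at 0 h, 18.9, 15.5 and 17.9 CPM at 2 h, 18.7, 22.9, 15.5 and 17.3 CPM at 6 h, and 15.5 and 17.7 CPM at 24 h. The groups did not overlap at any time, although the 24 h change was not called (0.64 ± 0.30, adjusted p = 0.157). The model gave 0.96 ± 0.25 at 2 h (adjusted p = 0.00900) and 0.85 ± 0.25 at 6 h (0.0224). The untreated level of RAB23 was lowest in run 1, where the 2 h difference was 1.77 on the log2 scale, against 0.50 in run 2, and without the 2 h library of run 1 the call was lost (adjusted p = 0.200). The 6 h call was lost without either 6 h library of run 2 (up to 0.108). RAB42 had 2.78 and 2.60 CPM at 24 h, against 1.81, 2.14, 2.02, 1.35 and 0.829 CPM at 0 h, a log2 change of 1.0 ± 0.31 (adjusted p = 0.0392). It was the 1 gene-body call of a member against 0 h past 2-fold, it rested on a mean normalized count of 34.2, and it was lost in 8 of the 14 fits that left out 1 library. RAB40B was not called, at -0.29 ± 0.14 at 2 h (adjusted p = 0.123).

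Among the 6 RAB-named regulators, the RAB11 effectors split at 2 h. RAB11FIP3, which carries RAB11 vesicles to the midbody in cell division, rose by 0.46 ± 0.11 at 2 h (adjusted p = 0.00570) and 0.33 ± 0.11 at 6 h (0.0441). RAB11FIP2, which links RAB11 to the motor myosin Vb, fell at 2 h (-0.38 ± 0.11, adjusted p = 0.0148), and RAB11FIP1 fell at 2 h (-0.23 ± 0.07, 0.0206). Without the 2 h library of run 1 the calls of RAB11FIP2 and RAB11FIP3 were lost (adjusted p = 0.181 and 0.0968). The 6 h call of RAB11FIP3 was lost in 8 of the 14 fits that left out 1 library, and the 2 h call of RAB11FIP1 without either 2 h library of run 2 (up to 0.0728). RAB3IP, the exchange factor of RAB8 also called Rabin8, fell at 24 h (-0.41 ± 0.11, adjusted p = 0.0191) and gave -0.16 ± 0.09 at both earlier times. That call was lost without either 24 h library, with an adjusted p of up to 0.175.

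Of the 22 TBC domain genes, 5 rose and 5 fell at 2 h, 6 rose and 3 fell at 6 h, and 3 rose and 1 fell at 24 h. For comparison, 19.7, 13.5 and 10.8% of all transcripts were called higher at 2, 6 and 24 h, and 18.9, 13.4 and 9.08% lower. TBC1D7, the small subunit of the TSC complex that restrains mTORC1 (NM_001143965, hg19, chromosome 6, 13305184 to 13328787), had 19.4, 17.6, 22.5, 23.4 and 22.8 CPM at 0 h, 36.6, 33.8 and 39.3 CPM at 2 h, 40.1, 37.6, 34.3 and 38.4 CPM at 6 h, and 32.0 and 34.9 CPM at 24 h. All treated libraries lay above all untreated ones. The log2 changes of 0.80 ± 0.10, 0.79 ± 0.10 and 0.61 ± 0.13 (SE, adjusted p = 0.000164, 0.000187 and 0.00525) include the smallest adjusted p of the 67 genes at 2 and 6 h. TBC1D10B, a GTPase-activating protein with activity on RAB27A and RAB35 (NM_015527, hg19, chromosome 16, 30368422 to 30381522), had 26.7, 25.8, 45.3, 39.2 and 42.6 CPM at 0 h, 50.0, 56.2 and 52.1 CPM at 2 h, 54.4, 50.4, 66.0 and 58.7 CPM at 6 h, and 57.2 and 52.3 CPM at 24 h. Its groups did not overlap either, though the 2 lowest untreated values were both of run 1. The log2 changes of TBC1D10B were 0.64 ± 0.11, 0.48 ± 0.11 and 0.55 ± 0.13 (adjusted p = 0.000954, 0.00710 and 0.0122). Without either 24 h library the 24 h call of TBC1D10B was lost (up to 0.125), and without library B that of TBC1D7 (0.0683).

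TBC1D4, the AKT substrate that holds back the surface delivery of the glucose transporter GLUT4 (NM_014832, hg19, chromosome 13, 75858809 to 76056250), had 127, 121, 150, 140 and 148 CPM at 0 h, 115, 113 and 88.3 CPM at 2 h, 111, 112, 110 and 110 CPM at 6 h, and 113 and 111 CPM at 24 h. All treated libraries lay below all untreated ones, and the 8 treated values outside run 1 spanned 110 to 115 CPM. The log2 changes were -0.41 ± 0.06, -0.42 ± 0.05 and -0.40 ± 0.07 (adjusted p = 0.000232, 0.000191 and 0.00190). TBC1D1, its closest relative, fell at 2 h (-0.22 ± 0.06, adjusted p = 0.0118; 0.134 without the 2 h library of run 1) and gave -0.04 at 6 and 24 h. TBC1D30 fell at 2 h (-0.78 ± 0.19, adjusted p = 0.00750) and 6 h (-0.57 ± 0.20, 0.0452), with 13.2, 10.1 and 15.2 CPM at 2 h, against 18.8, 17.4, 17.7, 29.8 and 27.8 CPM at 0 h. The difference of TBC1D30 at 2 h was -0.25 on the log2 scale within run 1 and -1.31 within run 2, and its 6 h call was lost in 9 of the 14 fits that left out 1 library. TBC1D15, a GTPase-activating protein of RAB7A, fell at 2 h (-0.45 ± 0.10, adjusted p = 0.00301), and TBC1D16 fell at 6 h (-0.30 ± 0.10, 0.0376). TBC1D17 and TBC1D13 rose at 2 h (0.65 ± 0.17 and 0.42 ± 0.10, adjusted p = 0.00874 and 0.00678) and 6 h, and without the 2 h library of run 1 both 2 h calls were lost (0.116 and 0.123). The 6 h calls of TBC1D17, TBC1D13 and TBC1D16 were lost in 11, 9 and 6 of the 14 fits. TBC1D10C rose at 24 h (0.60 ± 0.19, adjusted p = 0.0393), a call lost in 7 of those 14 fits.

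Over the 14 libraries, centred within runs, the gene-body level of TBC1D7 went most closely with those of TBC1D10B (Pearson r = 0.91, n = 14), RAB23 (0.88) and TBC1D20 (0.88), a GTPase-activating protein of RAB1. RAB27B went most closely with RAB1A (0.80), RAB27A (0.80) and RAB10 (0.72), and RAB42 with RAB5B (0.64), RAB27B (0.62) and RAB24 (0.61). These are descriptions over libraries that share the treatment times. For RAB10, which moves GLUT4 vesicles, the changes were -0.13, -0.05 and 0.08 at 2, 6 and 24 h, and none was called.

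The members that rose were shorter than those that fell. At 2 h the median listed span was 22.8 kb for the 11 that rose and 75.2 kb for the 13 that fell. The same order held at 6 h (23.2 against 72.6 kb) and 24 h (21.4 against 84.4 kb). Of the 26 members under 30 kb, which include TBC1D7, RAB5B, RAB9A and RAB34, 9 rose and 0 fell at 2 h, 10 rose and 1 fell at 6 h, and 8 rose and 0 fell at 24 h. Of the 22 over 70 kb, which include RAB27A, RAB7A and TBC1D4, 1 rose and 7 fell at 2 h, 3 rose and 3 fell at 6 h, and 1 rose and 2 fell at 24 h. All transcripts showed the same order, with median spans of 14.3 kb for those that rose and 57.8 kb for those that fell at 2 h. Of the 5765 transcripts under 30 kb, 1506 rose and 491 fell at 2 h. At 6 h 823 of them rose and 514 fell, and at 24 h 691 rose and 322 fell. Of the 2049 transcripts over 70 kb, 173 rose and 833 fell at 2 h. At 6 h 238 of these rose and 453 fell, and at 24 h 189 rose and 318 fell. Across genes, Spearman's rho of span and log2 change was -0.52, -0.46 and -0.45 at 2, 6 and 24 h for the members (n = 67), against -0.40, -0.21 and -0.28 over all transcripts (n = 10304). Within runs the members' rho was -0.47 (run 1) and -0.38 (run 2) at 2 h, -0.30 (run 2) and -0.41 (run 3) at 6 h, and -0.37 (run 2) at 24 h. Genes are not independent replicates, the points share the libraries, and short genes hold fewer reads, so these are descriptions. RAB27B (67 kb) and RAB8B (78.2 kb), which rose at 6 and 24 h, go against the order. So do RAB11FIP3 (96.8 kb), which rose at 2 and 6 h, and TBC1D8 (144 kb), which rose at 6 h.

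**Figure D4:**
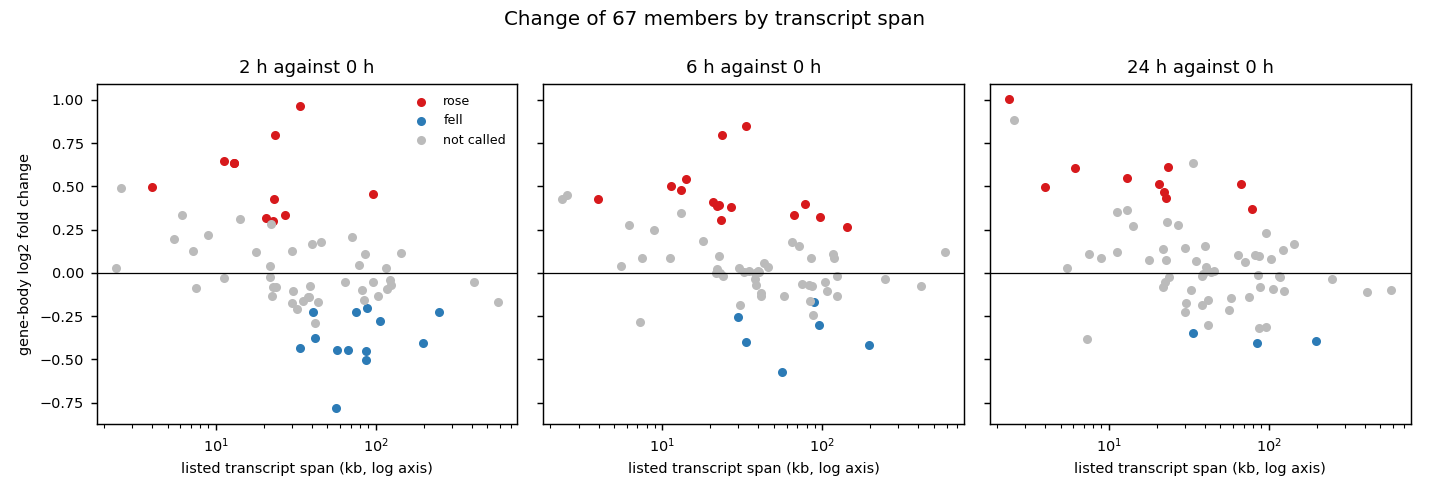
Gene-body log2 fold change of each of the 67 genes at 2, 6 and 24 h of dTAG-47 against its listed span in kb on a log axis; red rose, blue fell and grey was not called. Most risers lie under 30 kb and most fallers over it, and RAB27B (67 kb) and RAB8B (78.2 kb) are risers among the longer genes at 6 and 24 h. RAB11FIP3 (96.8 kb) is another at 2 and 6 h, and TBC1D8 (144 kb) at 6 h.

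RefSeq promoters were found for 54 of the 67 genes, 1 of them through an older symbol. Windows were used where the counted transcript started within 500 bases of the window's start in GENCODE v29, a limit set after the distances were seen. That left 49 genes, with a median distance of 26 bases. RAB27A, RAB27B and TBC1D22A were left out because their counted transcripts started 29308, 110342 and 1121 bases away, and TBC1D5 and TBC1D25 because no start was matched. The ETS core CCGGAA stood in 20 of the 49 (40.8%), against 34.4% of the 6656 promoters of genes in the count tables held to the same limit. It stood in 6 of the 8 promoters of members that fell at some time and rose at none (RAB11FIP2, RAB22A, RAB3IP, RAB4A, RAB7A and TBC1D22B), and in 3 of the 13 of those that rose and fell at none (RAB11B, RAB34 and TBC1D8). Over all genes, 29.4% of 1566 promoters of genes that fell and 33.5% of 1699 of genes that rose held it, which is the opposite order. The CCAAT box stood in 6 of the 13 risers, among them RAB5B, RAB8B and TBC1D10B, and in 1 of the 8 fallers (TBC1D22B), against 38.6% of the promoters of genes in the count tables. The order was the same over all genes, where 43.1% of the 1699 promoters of risers and 32.1% of the 1566 of fallers held it. The E-box CACGTG stood in 10 of the 49 (20.4%, against 11.1%), the RUNX motif TGTGGT in 4 (8.16%, against 8.62%) and the CRE in 1, that of RAB11FIP3 (2.04%, against 3.64%). The SP box stood in 42 of the 49 (85.7%, against 74.0%), and the median GC content was 68.3% in the members' promoters, against 65.7%. A match is a run of letters and no measure of binding.

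Near the promoter the 67 genes were counted with far fewer reads, with a median mean normalized count of 145, against 1240 in the gene body. In edgeR 0 members were called there at 2 h, 0 at 6 h and 1 at 24 h, where 4.61%, 2.24% and 1.41% of all transcripts were called. At an unadjusted p under 0.05 there were 15, 10 and 8 members, and DESeq2 with a run term called 1, 0 and 1. The shares of all transcripts at these 2 settings are not given here, so these counts are no result about the members. The edgeR call was TBC1D1 at 24 h, with 39.1 and 24.0 CPM at 24 h, against 9.74, 23.3, 23.5, 9.03 and 9.17 CPM at 0 h. The 24 h values lay above the untreated ones, narrowly for library B, and the log2 change was 1.62 ± 0.40 (adjusted p = 0.0465). That call was lost in 10 of the 14 fits that left out 1 library, each library of 24 h included, with an adjusted p of up to 0.509. It was also lost with no term for the run (adjusted p = 0.427) and with scaling by the gene-body libraries (0.313).

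The direction near the promoter depended on the scaling. With promoter-proximal TMM factors the median log2 change of the members was 0.06, 0.15 and 0.21 at 2, 6 and 24 h, and 38, 46 and 48 of the 67 were above 0. With gene-body library sizes and TMM factors the medians were -0.12, -0.08 and -0.03, and the median of all transcripts moved to -0.16, -0.23 and -0.23. Relative to all transcripts the members stood 0.06, 0.14 and 0.21 higher with the first scaling, and 0.04, 0.14 and 0.20 higher with the second. Within runs the members' median at 2 h was 0.21 in run 1 and 0.0076 in run 2. Members that rose in the gene body were mostly higher near the promoter too, 9 of 11 at 2 h, 12 of 15 at 6 h and 10 of 10 at 24 h, where 72.4%, 77.7% and 73.3% of all transcripts that rose were. Of the members that fell, 5 of 13, 2 of 6 and 1 of 3 were higher near the promoter, where 28.5%, 21.1% and 19.5% of all transcripts that fell were. Both regions come from the same libraries, so these counts are not independent of the gene-body calls.

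**Figure D5:**
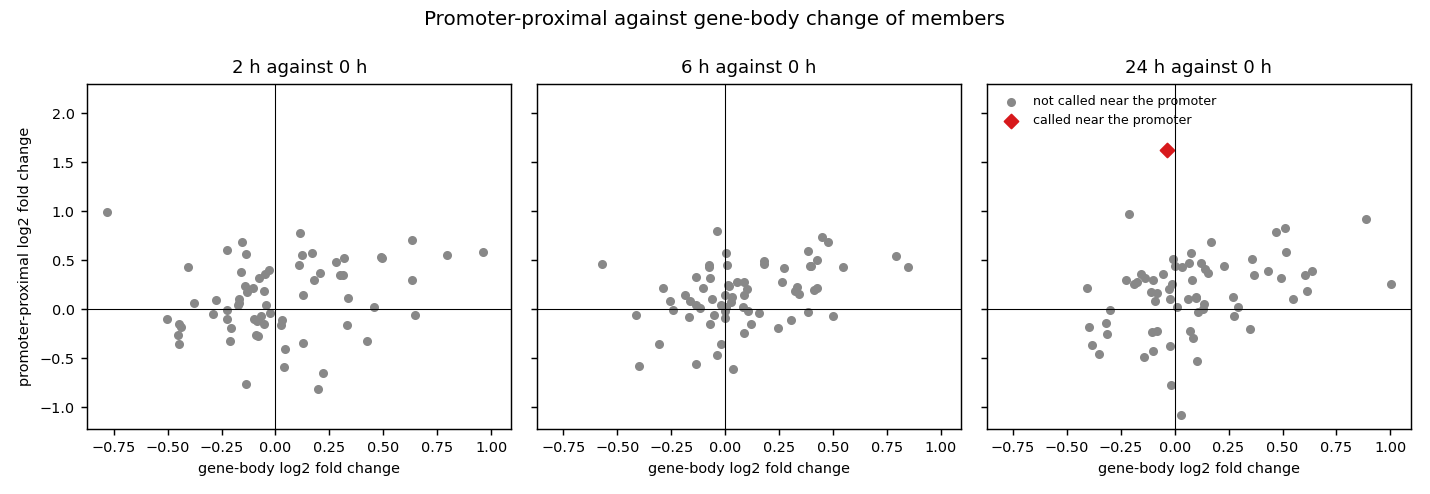
Promoter-proximal log2 fold change (vertical) against gene-body log2 fold change (horizontal) of each of the 67 genes at 2, 6 and 24 h of dTAG-47. The red diamond at 1.62 is TBC1D1 at 24 h, the 1 member called near the promoter.

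The promoter-proximal change was set against the gene-body change of the same library with limma. The difference was called for 2 members at 2 h and for 0 at 6 and 24 h, where 1.15%, 0.401% and 0.271% of all transcripts were called. At the later times 4 and 5 members had an unadjusted p under 0.05, and the shares of all transcripts at that threshold are not given here. RAB26, a RAB of secretory granules and synaptic vesicles, lost promoter-proximal reads relative to its gene body by -1.05 ± 0.20 on the log2 scale (adjusted p = 0.0234). In RAB26 the promoter-proximal share of reads was 3.26, 6.19 and 9.25% at 2 h, against 11.5, 13.6, 10.7, 14.3 and 14.5% at 0 h, and the groups did not overlap. TBC1D30 went the other way, by 1.81 ± 0.36 (adjusted p = 0.0266), with a share of 9.64, 17.5 and 17.9% at 2 h, against 1.31, 6.94, 10.7, 5.50 and 5.92% at 0 h, where the untreated library of run 3 overlapped. At 6 h the share of RAB26 was 7.25, 7.69, 6.55 and 5.04%, and at 24 h 4.68 and 6.32%. These lay below every untreated library, though the difference between regions was not called at those times. Whether 2 h differed from later times was not tested. All these shares are of raw reads. Over all transcripts the share was 11.3, 15.5 and 17.3% at 2 h, against 9.55, 12.6, 13.0, 19.7 and 20.6% at 0 h, in the same order of libraries. Both calls rested on few promoter-proximal reads, with mean normalized counts of 25.5 (RAB26) and 32.1 (TBC1D30). Both calls were lost with no term for the run and without any 1 of 5 libraries (the untreated ones of run 2 and those of 2 h), with adjusted p values of up to 0.0864 and 0.123.

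Genes that act on or with RABs were taken from 6 lists. Over all transcripts 19.7, 13.5 and 10.8% were called higher and 18.9, 13.4 and 9.08% lower in the gene body at 2, 6 and 24 h, and the counts below are to be read against these shares. Of the 28 exchange factors measured (of 38 listed), 3 rose and 9 fell at 2 h, 2 rose and 7 fell at 6 h, and 2 rose and 5 fell at 24 h, with median log2 changes of -0.09, -0.03 and 0.01. DENND5A and DENND5B, whose relatives in the DENN family load many RABs with GTP, fell at each time, by -0.52 ± 0.07 and -0.91 ± 0.13 at 2 h (adjusted p = 0.000238 and 0.000257). DENND2D and DENND1A, an exchange factor of RAB35, also fell at each time, and ALS2CL rose at each (0.63 ± 0.11 at 2 h, adjusted p = 0.000984). Of the 25 effectors measured (of 36), 4 rose and 3 fell at 2 h, 5 rose and 3 fell at 6 h, and 2 rose and 1 fell at 24 h. RUFY3 fell by -0.72 ± 0.09 at 2 h (adjusted p = 0.000173), and OCRL, the inositol phosphatase of Lowe syndrome, fell at each time (-0.61 ± 0.09 at 2 h, 0.000379). PLEKHM1, which joins RAB7 to the fusion machinery of lysosomes, rose at each time (0.33 ± 0.08 at 2 h, adjusted p = 0.00668).

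Of the 14 TRAPP complex genes measured (of 15), which build the exchange factors of RAB1 and RAB11, 4, 3 and 2 rose at 2, 6 and 24 h and 0 fell in edgeR at any time. With 14 genes, these counts lie near the shares over all transcripts. Their median log2 change was 0.09, 0.12 and 0.17, against 0.01 over all transcripts at each time. TRAPPC12 rose at each time (0.29 ± 0.05 at 2 h, adjusted p = 0.000812), TRAPPC2L at 2 h (0.63 ± 0.11, 0.00134), and TRAPPC9 at 6 h (0.20 ± 0.05, 0.00743) and 24 h (0.26 ± 0.06, 0.00576). Of the 8 genes measured from the list of HOPS and CORVET tethers (of 10), VPS8 rose at 6 and 24 h (0.41 ± 0.08 at 24 h, adjusted p = 0.00302). TGFBRAP1 fell at 2 h (-0.29 ± 0.07, 0.00419), and VPS41 fell at 2 and 24 h. VPS33B, also in that list, rose at 2 and 6 h. Of the 9 genes measured from the list of prenylation and membrane cycling (of 11), RABAC1 rose at 2 and 6 h, and RABEPK fell at 6 h. A place in a list does not make a gene a subunit of the complex or part of the pathway. Of the 7 other TBC domain genes measured (of 11), EVI5L rose at 2 and 6 h (0.54 ± 0.13 at 2 h, adjusted p = 0.00605) and USP6NL, a GTPase-activating protein of RAB5, fell at 2 h (-0.30 ± 0.07, 0.00400).

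At an adjusted p under 0.05 in the authors' deposited table for the gene body, 11, 15 and 9 members were called higher at 2, 6 and 24 h. By the same threshold 15, 6 and 4 were called lower. In the authors' deposited table for the promoter-proximal region, 0 members were called at any of the 3 times. The shares of all transcripts called in the authors' deposited tables are not given here, so these counts are no result about the members.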

How the data were processed

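PRO-seq libraries of 14 samples of SMARCA5-FKBP12F36V Kasumi-1 cells were used. The authors deposited raw read counts per transcript for the gene body and the promoter-proximal region, beside normalized columns and tables of log2 fold changes with adjusted p-values of their own. Per the submitters' processing notes, the tools were Trimmomatic 0.32 and Bowtie2 2.2.2, with SAMtools, HOMER and both DESeq and DESeq2, and the build was hg19 (GRCh37). What is not given in the sources used here is the strand, the windows counted and the meaning of the run code in the column names. The authors' log2 values and p-values were used only to count members called in their tables, which are described as the authors' deposited tables. The normalized columns (84 in all) were not used.

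Counts were fitted with edgeR 4.0.16 in R 4.3.3 (quasi-likelihood test, TMM factors, filterByExpr), with time and run as terms over all 14 libraries, and p-values were adjusted by Benjamini-Hochberg over the 10304 gene-body and 9980 promoter-proximal transcripts tested, with a threshold of 0.05. The difference between regions was fitted with limma 3.58.1 on log2 CPM (prior count 2). DESeq2 1.42.0 was an alternative. The model was tested on simulated data. No 2 libraries had identical counts. Depth sets the counting error: a member's median mean count was 1240 in the gene body and 145 near the promoter.

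The members and the lists of related genes were chosen with earlier results of these data known. Genes named are those called at all 3 times, up to 8 with the largest rise and fall per time and region (mean normalized count of at least 100), up to 3 per role and up to 4 per list by adjusted p, those called at 24 h against 2 h, and those most alike in pattern; a gene that the rule names is not reported here. Genes named for their level, those named as not called, and RAB11FIP1, RAB24, RAB26, TBC1D1, TBC1D8, TBC1D20, TBC1D22B, the promoters' motif holders and further listed genes were chosen after their values were seen. Promoters came from RefSeq (GRCh38.p14), matched by symbol and, through GENCODE v29, by the start of the counted transcript; no coordinates were converted between builds.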

Additional observations from a re-analysis of the deposited data

Results flagged for a closer look

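Of 62 groups of 4 or 5 libraries of named members, 8 had 1 library far from the rest, and chance does this in about 1 in 20 groups of libraries that differ only at random. These groups mix runs, whose levels differ, so that share is no measure for them. Among untreated libraries, RAB11B was lowest in library A of run 1 (10.5 CPM, next 15.9), RAB11FIP2 was lowest in that of run 3 (61.9, next 93.9), RAB12 was highest in library B of run 1 (79.2, next 70.6), and RAB34 was highest in that of run 3 (12.4, next 8.14). Among 6 h libraries, RAB11B was highest in library A of run 3 (30.5 CPM, next 22.4), RAB22A was lowest in library A of run 3 (52.3, next 58.1), RAB33B was highest in library A of run 2 (25.8, next 20.1), and TBC1D30 was lowest in library B of run 2 (13.0, next 15.5).

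The change differed between times for 3 genes, by a test of that difference in edgeR. At 6 h against 2 h RAB27B was higher by 0.78 on the log2 scale (adjusted p = 0.0162) and RAB8B by 0.36 (0.0494). At 24 h against 2 h RAB27A was higher by 0.60 (0.00791) and RAB27B by 0.96 (0.00196). RAB27B was above its 2 h level in all 4 libraries of 6 h and both of 24 h.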

How the results depend on the processing

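Of 65 calls on members, over all comparisons, 0 reversed under any alternative and 17 were lost under none. Calls lost numbered 29 at an adjusted p under 0.01, 31 with no run term, 16 with only the 2 groups compared, 6 with run 2 alone, 1 with DESeq2 and a run term, and 0 with DESeq2 size factors or no filter. Without both untreated libraries of run 1, an alternative chosen after seeing the data, 9 were lost.

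Gene-body calls at 2 h (24) became 9 with no run term and 14 with only the 2 groups compared. Those at 6 h (21) became 8 at the stricter threshold and 32 in run 2 alone. Those at 24 h (13) became 4 at the stricter threshold, 6 with no run term and 26 in run 2 alone. Calls at 6 h and 24 h against 2 h (2 each) became 0 with no run term. Promoter-proximal calls at 2 h (0) became 1 with DESeq2 size factors, 1 with DESeq2 and a run term, 5 in run 2 alone and 3 without both untreated libraries of run 1. At 6 h (0) they became 3 in run 2 alone. At 24 h (1) they became 0 at the stricter threshold, with gene-body scaling, with no run term and with only the 2 groups compared, 9 in run 2 alone and 2 without both untreated libraries of run 1. The 2 calls of promoter-proximal against gene-body change at 2 h became 0 with no run term. The shares of all transcripts called under each alternative, here and below, are not given, so these counts are no result about the members. The causes of the changes in these counts were not tested.

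Leaving out 1 library at a time gave 11 to 26 gene-body calls at 2 h (11 without the 2 h library of run 1), 9 to 25 at 6 h, 4 to 13 at 24 h, 0 to 3 at 6 h against 2 h and 0 to 6 at 24 h against 2 h. It gave 0 to 3, 0 to 0 and 0 to 1 promoter-proximal calls at 2, 6 and 24 h, and 0 to 3, 0 to 0 and 0 to 1 calls of the difference between regions. The count columns carry a letter, A or B, that could not be matched to the labels' replicate numbers. In run 2, the run with both letters at all 4 times, the difference between A and B correlated between times over genes at -0.07 to 0.13 in the gene body, so the letters were not taken to pair the libraries. A replicate block on the letter within its run, an alternative chosen after seeing the data, gave 23, 16 and 11 gene-body calls at 2, 6 and 24 h, 0 at 6 h against 2 h and 2 at 24 h against 2 h. With this block there were 0, 0 and 1 promoter-proximal calls, and 1, 0 and 0 calls of the difference between regions, and 11 of the 65 calls were lost. Depth limits the promoter-proximal values most, where 38 of the 67 members reached a mean normalized count of 100.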
